A study of Mus musculus with 23 samples.

Results

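Hair keratins and keratin-associated proteins (KAPs) are the structural proteins of the hair follicle and the hair shaft. The genes described here are all genes of the array table whose single annotated symbol begins with Krtap, together with 21 hair follicle keratins listed by name and Tchh, which encodes trichohyalin. Where a gene had several probe sets, the one with the highest mean was used. This gave 63 of the 19938 genes tested, of which 44 were Krtap genes and 19 were keratins or Tchh. Krt81, Krt83 and Krt85, the other 3 genes on the list, were not analysed here. No measured value entered the choice of genes, but the choice was made with earlier results of these data known.

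The arrays were made from ear pinna of 4-week-old female mice. The 11 cub arrays came from Rhbdf2cub/cub mice of the strain B6.Cg-Rhbdf2cub/J, and the 12 wild-type arrays from Rhbdf2+/+ mice of the strain C57BL/6J. The mice had a 2-mm hole punched through the ear, and the 1-mm rim around it was taken with a 3-mm biopsy punch after 15 min, 2 h or 24 h, while 0 h ears were unwounded. Each group had 3 biological replicates, except cub at 15 min with 2 (replicates 2 and 3). Whether the wild-type mice were littermates of the cub mice is not stated in the sources used here. The piece of tissue taken from 0 h ears is not stated in the sources used here, so wounded and unwounded samples may also differ in the piece of ear taken.

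Rhbdf2 encodes iRhom2, a membrane protein needed for the maturation of ADAM17, the protease that releases ligands of the EGF receptor, and cub stands for curly bare, a sparse and wavy coat. In a growing follicle, cells of the matrix give rise to concentric layers. The inner root sheath moulds the rising hair, expresses its own keratins (Krt25 to Krt28 and Krt71 to Krt74) and fills with trichohyalin, which is hardened by crosslinking. The companion layer with Krt75 lies outside it. The shaft inside it is built from hair keratins such as Krt31 to Krt35 and Krt81 to Krt86, embedded in a matrix of KAPs. KAPs fall into families rich in glycine and tyrosine and families rich in cysteine. Most of these genes are active only in the growth phase of the hair cycle.

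All values are log2 RMA values, so a difference of 1 is a doubling of signal, and levels of different genes cannot be set against each other because each has its own probes. Array medians lay between 6.37 and 6.46, and 54 of the 63 genes had a mean below the median level of all genes, 7.15. A highest group mean under 6 was used as a cut for dim probe sets and is no call of absence. The 27 genes at or above it were 6 of 9 inner root sheath genes, Krt75, 5 of 9 hair shaft keratins, 3 of 14 glycine-tyrosine KAPs and 12 of 30 KAPs of other families. The other 36 were below it in all 8 groups. Rhbdf2 itself was between 9.07 and 9.14 in cub at 0 h, against 8.64 to 8.76 in wild type, and was lower in cub at 24 h (8.20 to 8.45 against 8.57 to 9.01). Genes were tested with limma over all 23 arrays, with Benjamini-Hochberg adjustment over the 19938 genes and a threshold of 0.05. In whole ear tissue, fewer cells of a type and less RNA per cell cannot be told apart.

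Arrays stood apart in these genes. Cub 0 h replicate 3 was high and cub 0 h replicate 2 low in the inner root sheath genes, and wild-type 24 h replicate 1 was high in glycine-tyrosine KAPs. At 15 min the dim genes of the whole array were shifted towards cub, with a median cub minus wild type difference of 0.095 over the 6790 genes whose mean over all arrays was under 6, of which 84.4% were positive. The weights that limma gave to both cub 15 min arrays were 0.503, and in a group of 2 arrays the weights are always equal. They were not the lowest, as cub 2 h replicate 1 had 0.477 and wild-type 24 h replicate 1 had 0.498. Of the 63 genes, 13 also had their name in rows shared by several genes, among them Krtap4-1, Krtap5-2, Krtap5-4, Krtap6-1 and Krtap6-5. Near-identical copies in the Krtap4, Krtap5 and Krtap6 families may share probes, so a value of one member is uncertain as to which copy it measured.

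The promoters of the 6 inner root sheath genes whose calls are described first, and of 2 KAP genes, are printed here because these genes carry the differences described next. Each runs from 250 bases before to 50 bases after the gene's annotated start, 5′ to 3′ on the gene's own strand, from RefSeq on GRCm38.p6, where all 63 genes were found by gene ID and 55 had a promoter entry. Those of Krt25, Krt27 and Krt28 lie in the type I keratin cluster at chr11:99322902-99323201, chr11:99351069-99351368 and chr11:99374854-99375153, all on the minus strand. Those of Krt71 and Krt73 lie in the type II keratin cluster at chr15:101743048-101743347 and chr15:101802311-101802610, also on the minus strand. The promoter of Tchh is at chr3:93442080-93442379, that of Krtap6-1 at chr16:89031449-89031748 and that of Krtap15 at chr16:88828759-88829058, all on the plus strand. Capitals mark 3 motifs searched on both strands, TATAAA (the TATA box), AGATAA (bound by GATA factors) and CTTTGA (bound by LEF1 and TCF factors), which were chosen after the results were seen.
Krt25: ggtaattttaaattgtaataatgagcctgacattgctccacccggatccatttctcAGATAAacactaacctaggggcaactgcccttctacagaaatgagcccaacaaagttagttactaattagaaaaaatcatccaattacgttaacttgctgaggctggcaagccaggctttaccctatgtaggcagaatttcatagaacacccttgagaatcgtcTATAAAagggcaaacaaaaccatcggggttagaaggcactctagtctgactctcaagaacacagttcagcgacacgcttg
Krt27: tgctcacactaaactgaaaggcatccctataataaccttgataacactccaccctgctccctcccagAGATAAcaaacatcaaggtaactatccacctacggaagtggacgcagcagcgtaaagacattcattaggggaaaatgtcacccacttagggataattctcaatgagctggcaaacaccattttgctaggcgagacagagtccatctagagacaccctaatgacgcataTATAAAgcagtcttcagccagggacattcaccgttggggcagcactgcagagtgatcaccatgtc
Krt28: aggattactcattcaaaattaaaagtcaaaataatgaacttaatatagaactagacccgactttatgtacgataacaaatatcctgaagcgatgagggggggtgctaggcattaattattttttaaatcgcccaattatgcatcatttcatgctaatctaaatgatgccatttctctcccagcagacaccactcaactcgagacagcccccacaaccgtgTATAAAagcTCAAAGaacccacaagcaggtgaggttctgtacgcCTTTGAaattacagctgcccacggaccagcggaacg
Krt71: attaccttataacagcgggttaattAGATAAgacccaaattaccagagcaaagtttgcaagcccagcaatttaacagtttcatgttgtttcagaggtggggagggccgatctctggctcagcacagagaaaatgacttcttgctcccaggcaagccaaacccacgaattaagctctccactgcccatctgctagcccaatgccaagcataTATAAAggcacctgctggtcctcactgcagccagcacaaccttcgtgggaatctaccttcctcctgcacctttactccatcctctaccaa
Krt73: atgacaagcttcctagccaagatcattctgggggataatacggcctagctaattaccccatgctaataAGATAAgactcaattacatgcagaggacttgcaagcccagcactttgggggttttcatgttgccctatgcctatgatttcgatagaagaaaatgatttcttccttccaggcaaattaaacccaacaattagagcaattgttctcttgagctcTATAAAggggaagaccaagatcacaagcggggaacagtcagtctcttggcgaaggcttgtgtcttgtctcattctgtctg
Tchh: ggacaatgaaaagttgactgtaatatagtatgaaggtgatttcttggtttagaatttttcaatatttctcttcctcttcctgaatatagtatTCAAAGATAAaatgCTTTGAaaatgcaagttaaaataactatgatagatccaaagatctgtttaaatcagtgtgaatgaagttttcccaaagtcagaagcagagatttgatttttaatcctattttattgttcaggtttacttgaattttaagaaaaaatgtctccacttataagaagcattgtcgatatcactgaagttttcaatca
Krtap6-1: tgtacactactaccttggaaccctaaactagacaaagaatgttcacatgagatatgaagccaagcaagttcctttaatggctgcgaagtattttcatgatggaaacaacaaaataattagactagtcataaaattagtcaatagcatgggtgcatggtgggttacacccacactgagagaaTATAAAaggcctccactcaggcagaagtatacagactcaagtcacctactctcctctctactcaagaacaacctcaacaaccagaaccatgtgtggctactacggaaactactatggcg
Krtap15: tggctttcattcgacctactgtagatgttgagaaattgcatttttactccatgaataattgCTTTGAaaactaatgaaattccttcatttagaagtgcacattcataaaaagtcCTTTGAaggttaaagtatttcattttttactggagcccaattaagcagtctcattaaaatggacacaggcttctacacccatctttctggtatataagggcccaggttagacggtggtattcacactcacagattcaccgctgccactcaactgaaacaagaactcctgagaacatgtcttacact
TATAAA stood in 5 of the 6 inner root sheath promoters, 30 bases before the start in Krt25, Krt28 and Krt73, 40 before in Krt71 and 15 before in Krt27. It stood in 44 of the 55 promoters of the whole gene set (80.0%) and in 13.6% of 32851 promoters of all genes. AGATAA also stood in 5 of the 6, between 154 bases before the start in Tchh and 225 in Krt71. These 6 were picked by their calls, and over all inner root sheath genes with a promoter entry it was 5 of 8 (62.5%). It stood in 0 of 6 hair shaft keratin promoters, in 14 of 55 in the gene set (25.5%) and in 11.2% of all promoters. In Krt28 it had no match in this window. CTTTGA was found in 20 of the 55 (36.4%) and in 16% of all, and 1 of its matches in Tchh overlaps AGATAA. Krtap15 held CTTTGA at 189 and 136 bases before the start and no TATAAA. Only these exact letters were searched, so a promoter without a match may still hold a variant of the motif. A match is a description of letters and not a site shown to be used.

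At 15 min after the punch, 11 of the 63 genes were higher in cub than in wild type and 0 were lower, where 1.57% of all genes were called higher and 1.88% lower. The inner root sheath held 7 of the 11, of its 9 genes tested. The other 4 were 1 of 9 hair shaft keratins and 3 of 30 KAPs outside the glycine-tyrosine families, and 0 of 14 glycine-tyrosine KAPs passed. The median difference was 0.78 over the 9 inner root sheath genes, 0.23 over all 63 and 0.03 over all genes tested.

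Krt25, a type I keratin of the inner root sheath, was 8.22 and 7.98 in cub at 15 min, against 5.84, 5.92 and 5.78 in wild type. Both cub arrays were far above all 3 wild-type arrays, by 2.25 ± 0.39 on average (difference ± SE, limma adjusted p = 0.00444). Krt71, a type II keratin found in all layers of the sheath, was 7.74 and 7.57 in cub, against 6.13, 6.04 and 5.98 in wild type. The groups again did not overlap, with a difference of 1.60 ± 0.29 (limma adjusted p = 0.00737). Dominant mutations of Krt25 or Krt71 give mice wavy coats.

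Tchh, the trichohyalin that fills the sheath cells, was 7.95 and 7.76 in cub, against 6.64, 6.67 and 6.62 in wild type. The wild-type arrays lay within 0.05 of each other, and cub was higher by 1.21 ± 0.19 (limma adjusted p = 0.00261). Krt73, a keratin of the sheath cuticle, was 6.96 and 6.88 in cub, against 5.96, 6.08 and 6.03 in wild type (0.90 ± 0.19, limma adjusted p = 0.0145). Krt27, a type I keratin of the sheath, was 7.18 and 6.92 in cub, against 6.15, 6.31 and 6.34 in wild type (0.78 ± 0.18, limma adjusted p = 0.0233). Krt28, of the same type, was 5.65 and 5.52 in cub, against 4.79, 4.88 and 4.82 in wild type. Neither Krt73, Krt27 nor Krt28 overlapped between the genotypes, and the difference in Krt28 was 0.76 ± 0.13 (limma adjusted p = 0.00434).

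Krt72, a cuticle keratin, was 6.05 in both cub arrays, against 5.67, 5.69 and 5.65 in wild type (0.38 ± 0.10, limma adjusted p = 0.0367). The remaining sheath keratins did not pass. Krt74 was 4.85 and 4.87 in cub, against 4.72, 5.02 and 4.84 in wild type, a difference of 0.00 ± 0.10. Krt26 was 4.67 and 4.70 in cub, against 4.62, 4.66 and 4.47 in wild type (0.10 ± 0.09, limma adjusted p = 0.485). Both were dim in all groups.

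**Figure D1:**
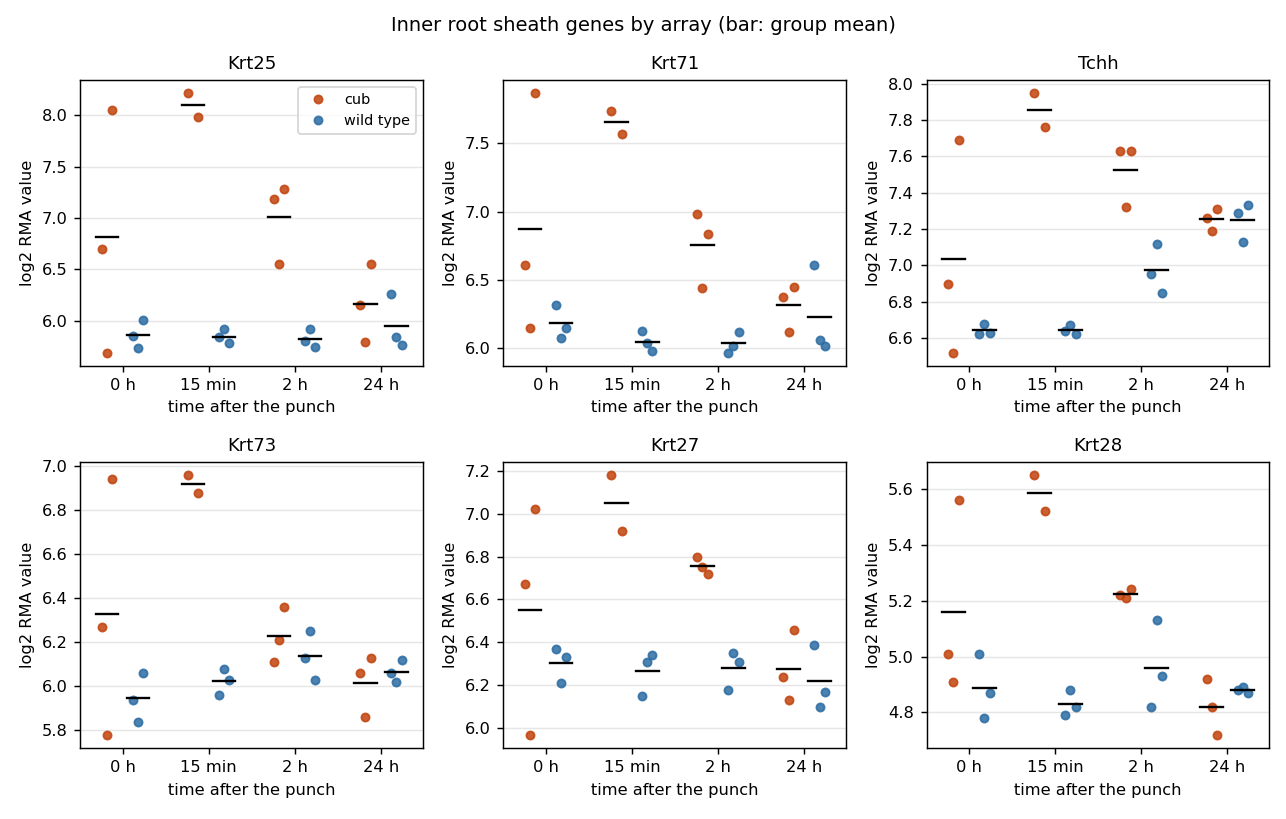
Log2 RMA values (vertical axis, each panel with its own scale) of 6 inner root sheath genes by time after the punch (horizontal axis), with 1 point per array and a bar at each group mean. At 15 min both cub arrays lie above all 3 wild-type arrays in every panel, Krt25 at 8.22 and 7.98 against 5.78 to 5.92, and at 0 h the cub arrays spread widely.

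These calls rested on few arrays. Without cub 15 min replicate 3, which leaves 1 cub array whose spread is taken to be that of the other groups, 2 of the 11 calls passed, Tchh (adjusted p = 0.0350) and Krt28 (adjusted p = 0.0460) in limma, while Krt25 then differed by 2.37 (adjusted p = 0.0531). Without cub 15 min replicate 2 there were 15 calls. Without wild-type 15 min replicate 1, 2 or 3 there were 6, 7 and 6. Split by the mean over all 23 arrays, the 43 genes of the set under 6 had a median difference of 0.19, with 6 called, and the other 20 had a median of 0.26, with 5 called. Over all genes the median was 0.095 under 6 and −0.02 at 6 or above. In 38 of the 63 genes (60.3%) both cub arrays were above all wild-type arrays, against 22.4% of all genes and 34.9% of dim genes. The part of the dim-gene shift in these calls was not tested.

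The 7 sheath genes that differed at 15 min had no call at 0 h. In unwounded ears Krt25 was 6.70, 5.69 and 8.05 in cub, against 5.85, 5.73 and 6.01 in wild type. Cub replicate 3 reached the 15 min level, while cub replicate 2 lay below all 3 wild-type arrays, and the difference was 0.95 ± 0.35 (limma adjusted p = 0.120). Krt71 was 6.61, 6.15 and 7.87 in cub, against 6.32, 6.08 and 6.15 in wild type (0.69 ± 0.26, limma adjusted p = 0.138). Tchh was 6.90, 6.52 and 7.69 in cub, against 6.62, 6.68 and 6.63 in wild type (0.39 ± 0.17, limma adjusted p = 0.214). The SD of Krt25 at 0 h was 1.18 in cub and 0.14 in wild type (n = 3 each).

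Of all 63 genes, 0 passed at 0 h in limma, where 5.25% of all genes did, and 11 had an unadjusted p below 0.05, as did 18.4% of all genes. Leaving out cub 0 h replicate 2 gave 5 calls, all higher in cub: Krt25 by 1.51 (limma adjusted p = 0.00668), Krt71 by 1.06 (adjusted p = 0.0258), Krt73 by 0.66 (adjusted p = 0.0126), Tchh by 0.65 (adjusted p = 0.0258) and Krt27 by 0.54 (adjusted p = 0.0159). Leaving out cub 0 h replicate 3 gave 1, Krt33b, lower in cub by −0.36 (limma adjusted p = 0.0495). Adipocyte genes moved with cub 0 h replicate 2, whose mean over 9 adipocyte markers was 10.2, against 9.14 and 9.49 in the other 2 cub arrays. The part of fat content in the sheath genes was not tested.

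At 2 h none of the sheath genes was past the threshold, and Krt25 lay close to it. Krt25 was 7.19, 6.55 and 7.28 in cub, against 5.80, 5.92 and 5.74 in wild type. All cub arrays were above all wild-type arrays, but the difference of 1.19 ± 0.35 did not pass (limma adjusted p = 0.0552). It passed in limma with the replicate block (adjusted p = 0.0453), with only the arrays compared (adjusted p = 0.00894) and with array weights (adjusted p = 0.00464). It also passed without cub 2 h replicate 2, the lowest of the cub arrays (1.41, limma adjusted p = 0.0414). It did not pass with median-centring, quantile normalization, every row or trend and robust moderation. With the dim filter the limma adjusted p was 0.0429. Krt25 enters that filter only through its cub groups, as its wild-type group means were all under 6, so this pass adds no support. Tchh was 7.63, 7.32 and 7.63 in cub, against 6.95, 7.12 and 6.85 in wild type (0.55 ± 0.17, limma adjusted p = 0.0739). Krt27 was 6.80, 6.75 and 6.72 in cub, against 6.18, 6.35 and 6.31 in wild type (0.48 ± 0.16, limma adjusted p = 0.105). Krt71 was 6.98, 6.44 and 6.84 in cub, against 5.97, 6.02 and 6.12 in wild type (0.72 ± 0.26, limma adjusted p = 0.141). In these 4 genes the genotypes did not overlap at 2 h, and Tchh, Krt27 and Krt71 also passed with only the arrays compared and with array weights. These 3 did not pass with median-centring, quantile normalization, the dim filter, every row, the replicate block or trend and robust moderation.

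At 24 h the genotypes overlapped. Krt25 was 6.15, 5.79 and 6.55 in cub, against 6.26, 5.84 and 5.76 in wild type (0.21 ± 0.35, limma adjusted p = 0.846). Tchh was 7.26, 7.19 and 7.31 in cub, against 7.29, 7.13 and 7.33 in wild type, a difference of 0.00 ± 0.17. Of all 63 genes 0 passed in limma at 24 h, where 5.68% of all genes did, and 0 had an unadjusted p below 0.05, as did 18.5% of all genes. Averaged over the 4 times, 15 of the 63 were higher in cub and 0 lower, where 9.71% of all genes were higher and 8.56% lower. Of the 15, 7 were the same sheath genes: Krt25, Krt71, Tchh, Krt27, Krt73, Krt28 and Krt72. The average contains the 15 min difference by which these 7 were picked. Their return is therefore partly built in and is no independent support. The average differences were largest in Krt25 (1.15 ± 0.18, limma adjusted p = 0.000142), Krt71 (0.78 ± 0.14, adjusted p = 0.000452) and Tchh (0.54 ± 0.09, adjusted p = 0.000249). They were 0.39 ± 0.08 in Krt27 (adjusted p = 0.00228), 0.33 ± 0.09 in Krt73 (adjusted p = 0.00996) and 0.31 ± 0.06 in Krt28 (adjusted p = 0.000927), all from limma. The other 8 were Krt33a and the KAP genes Krtap6-1, Krtap4-16, Krtap11-1, Krtap6-5, Krtap4-7, Krtap13-1 and Krtap1-4, with differences of 0.13 to 0.28.

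The 7 sheath genes called at 15 min moved together from array to array, and Krt26 and Krt74 did not follow them. Over the 23 arrays, the Pearson correlation with Krt25 was 0.974 for Krt71, 0.944 for Krt27, 0.911 for Krt73, 0.899 for Krt28, 0.829 for Tchh and 0.788 for Krt72, but 0.034 for Krt26 and −0.13 for Krt74. Taken over the deviations from the group means it was 0.94 for Krt71, 0.927 for Tchh, 0.906 for Krt73, 0.884 for Krt27, 0.717 for Krt28 and 0.634 for Krt72, and 0.173 for Krt26 and 0.058 for Krt74. Some KAP genes came near the lower of these values. Over the 23 arrays Krtap1-4 was at 0.733, Krtap4-2 at 0.728 and Krtap1-3 at 0.726. Over the deviations Krtap10-4 was at 0.766, Krtap19-3 at 0.646 and Krtap1-3 at 0.627. The other KAP genes were lower on each measure. Krt25, Krt71, Tchh, Krt73, Krt27 and Krt28 had their largest SD in cub at 0 h, so that group weighs most in these deviations. For Krt25 that SD was 1.18, against 0.07 to 0.40 in its other groups. The arrays share processing and normalization, and these correlations are a description across arrays.

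Krt75, the keratin of the companion layer, was bright and was called between the genotypes at no time. At 15 min it was 8.30 and 8.37 in cub, against 7.83, 8.20 and 8.20 in wild type (0.26 ± 0.16, limma adjusted p = 0.348). At 2 h it was 7.77, 7.87 and 7.91 in cub, against 8.09, 8.13 and 8.21 in wild type. The cub arrays were then all below the wild-type arrays, as were 7.28% of all genes, and among the 63 it was the only one, with a difference of −0.29 ± 0.15 (limma adjusted p = 0.319).

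Of the 9 hair shaft keratins, 1 differed at a single time. Krt35, a keratin of the early shaft, was 5.92 and 6.17 in cub at 15 min, against 5.68, 5.74 and 5.74 in wild type (0.33 ± 0.09, limma adjusted p = 0.0427). Leaving out cub 15 min replicate 3 ended the call (limma adjusted p = 0.464). Krt33a, a cortex keratin, was 6.14 and 5.94 in cub at 15 min, against 5.56, 5.81 and 5.70 in wild type (0.35 ± 0.11, limma adjusted p = 0.0661), and was called in the average over the times (0.19, limma adjusted p = 0.00776).

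The remaining shaft keratins had smaller differences at 15 min. Krt31, of the cortex, differed by 0.31 ± 0.09 (limma adjusted p = 0.0524). Krt33b, bright at group means of 7.53 to 7.88 in cub and 7.60 to 7.77 in wild type, differed by 0.24 ± 0.11, Krt34 by 0.18 ± 0.12, and Krt82, a cuticle keratin, by 0.14 ± 0.09. Krt86, a cortex keratin, differed by 0.14 ± 0.11, and Krt32, another cuticle keratin, by 0.09 ± 0.07. Krt84 was −0.07 ± 0.11. The mean of the 9 shaft keratins stayed within 5.72 and 6.09 on all 23 arrays, a narrow range beside that of the sheath genes, 5.55 to 6.59.

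**Figure D2:**
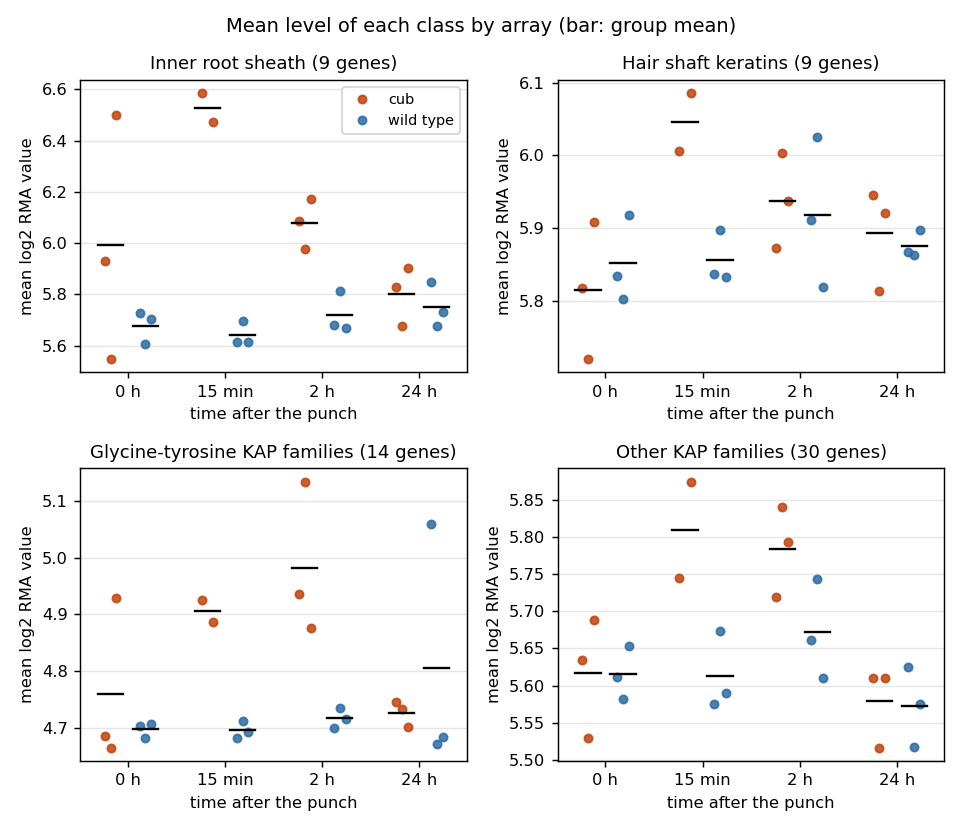
Mean log2 RMA value of 4 classes of genes (vertical axis, each panel with its own scale) by time after the punch (horizontal axis), with 1 point per array and a bar at each group mean. The inner root sheath mean at 15 min was 6.47 to 6.59 in cub and 5.61 to 5.70 in wild type, and at 24 h it was 5.68 to 5.90 in cub and 5.68 to 5.85 in wild type.

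At 2 h there were 7 genes higher in cub and 0 lower, where 3.84% of all genes were higher and 0.577% lower, and all 7 were KAPs: 3 of 14 glycine-tyrosine KAPs and 4 of 30 KAPs of other families. In 6 of the 7, all but Krtap15, both cub arrays were above all wild-type arrays at 15 min. At that time this held for 60.3% of the 63 genes, 22.4% of all genes and 34.9% of dim genes. Whether the 2 h and 15 min differences of a gene differ was not tested. Under alternatives sheath genes and shaft keratins joined the calls at 2 h. Krt25 alone joined with the replicate block and with the dim filter, which it enters only through its cub groups. With only the arrays compared, 4 sheath genes were among 8 added. With array weights, 6 sheath genes, Krt33a and Krt86 were among 14 added. The median difference was 0.22 over the glycine-tyrosine KAPs, 0.08 over all 63 and 0 over all genes. In 23 of the 63 genes (36.5%) all cub arrays were above all wild-type arrays, against 13.6% of all genes and 3.48% of dim genes. The dim genes of the array were not shifted towards cub at this time, with a median of −0.03 and 34.8% positive. Split by the mean over all arrays, the 43 genes of the set under 6 held all 7 calls, with a median difference of 0.11. The other 20 held 0, with a median of 0.02. Of all genes, 0.97% of those under 6 and 6.19% of those at 6 or above were called at 2 h.

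Krtap7-1, a glycine-tyrosine KAP of the shaft, was 6.15, 6.49 and 5.86 in cub at 2 h, against 5.36, 5.45 and 5.45 in wild type. The genotypes did not overlap, and the difference was 0.75 ± 0.19 (limma adjusted p = 0.0306). Krtap6-1, of another glycine-tyrosine family, was 4.66, 4.57 and 4.25 in cub, against 3.82, 3.89 and 3.96 in wild type (0.60 ± 0.13, limma adjusted p = 0.00878). Krtap7-1 was dim in unwounded ears and had its highest group mean, 6.17, in cub at 2 h. Krtap6-1 was dim in all groups, with a highest group mean of 4.49. Krtap15 was 4.76, 4.78 and 4.69 in cub, against 4.26 in each wild-type array. The genotypes were far apart for the spread of their arrays, with a difference of 0.48 ± 0.07 (limma adjusted p = 0.000384).

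Krtap4-1, of a family rich in cysteine, was 6.09, 6.20 and 6.12 in cub, against 5.70, 5.79 and 5.54 in wild type (0.46 ± 0.12, limma adjusted p = 0.0357). Krtap4-16, of the same family, was 4.54, 4.62 and 4.52 in cub, against 4.05, 4.09 and 4.18 in wild type (0.45 ± 0.08, limma adjusted p = 0.00145). Krtap11-1 was 5.81, 6.10 and 5.92 in cub, against 5.49, 5.75 and 5.53 in wild type (0.35 ± 0.10, limma adjusted p = 0.0431). The genotypes did not overlap in any of these 3. The seventh gene, Krtap6-5, which was named after its values were seen, differed by 0.30 ± 0.08 (limma adjusted p = 0.0288).

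**Figure D3:**
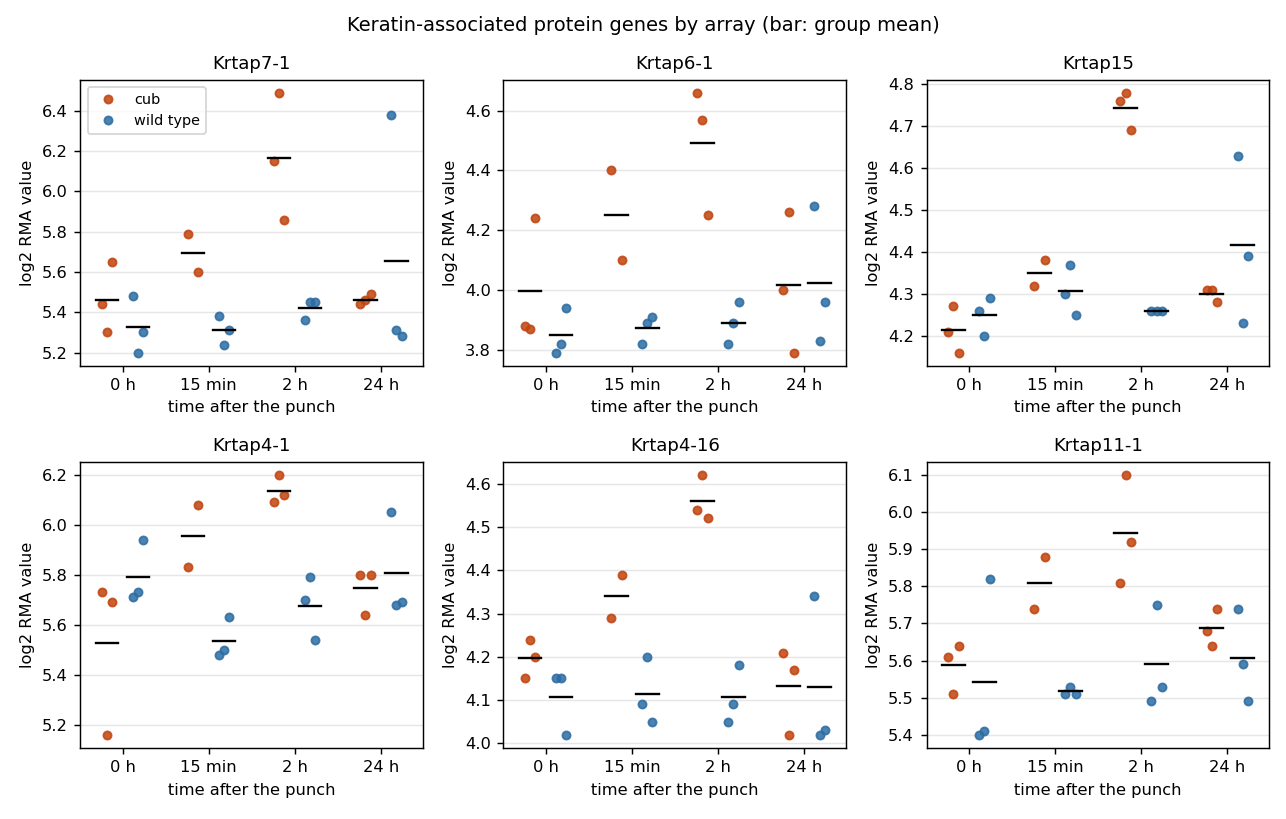
Log2 RMA values (vertical axis, each panel with its own scale) of 6 keratin-associated protein genes by time after the punch (horizontal axis), with 1 point per array and a bar at each group mean. At 2 h the cub arrays lie above the wild-type arrays in every panel, Krtap15 at 4.69 to 4.78 against 4.26, and at 24 h wild-type replicate 1 stands above the other 2 wild-type arrays, in Krtap7-1 at 6.38 against 5.28 and 5.31.

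Krtap15 and Krtap4-16 held their calls in all alternatives tried, and Krtap6-1 lost its call without cub 2 h replicate 1 only (limma adjusted p = 0.0773). The difference in Krtap7-1 was 0.59 without cub 2 h replicate 2 (limma adjusted p = 0.130). The number of calls was 3, 4 and 7 without cub 2 h replicate 1, 2 or 3, and 3, 6 and 3 without wild-type 2 h replicate 1, 2 or 3. Over the 23 arrays the Pearson correlation with Krtap7-1 was 0.914 for Krtap21-1, 0.849 for Krtap8-1, 0.840 for Krtap6-1 and 0.834 for Krtap15, all but the last of the glycine-tyrosine families. On wild-type 24 h replicate 1 the mean of the 14 glycine-tyrosine KAPs was 5.06, against 4.67 and 4.68 on the other 2 wild-type 24 h arrays. Melanocyte genes moved at the same time: 4 of 12 were higher in cub at 2 h, where 3.84% of all genes were higher. They were Tyrp1 by 1.02, Dct by 0.92, Pmel by 0.66 and Tyr by 0.54. At 0 h, 15 min or 24 h, 0 of the 12 were called. The mean of the 12 was 6.65 to 6.99 in cub at 2 h, against 6.31 to 6.50 in wild type. Their part in the KAP result was not tested.

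The 3 KAP genes called at 15 min were named after their values were seen. Krtap5-2, of a cysteine-rich family of the hair cuticle, was 5.61 and 5.85 in cub, against 5.01, 5.20 and 5.12 in wild type (0.62 ± 0.17, limma adjusted p = 0.0434). Krtap5-4, of the same family, was 6.01 and 6.05 in cub, against 5.44, 5.64 and 5.49 in wild type (0.51 ± 0.09, limma adjusted p = 0.00543). Krtap1-4 was 5.86 and 6.06 in cub, against 5.63, 5.69 and 5.61 in wild type (0.32 ± 0.08, limma adjusted p = 0.0373). None overlapped, and without cub 15 min replicate 3 none of the 3 passed (limma adjusted p from 0.0782 to 0.387). Of Krtap5-2, Krtap5-4 and Krtap1-4, at 2 h 0 were called, at differences of −0.04 ± 0.15, −0.01 ± 0.08 and 0.22 ± 0.07, though Krtap1-4 passed at 2 h with quantile normalization (0.25, limma adjusted p = 0.0179) and with array weights. Krtap6-5, called at 2 h, passed at 15 min with trend and robust moderation (0.28, limma adjusted p = 0.0444).

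**Figure D4:**
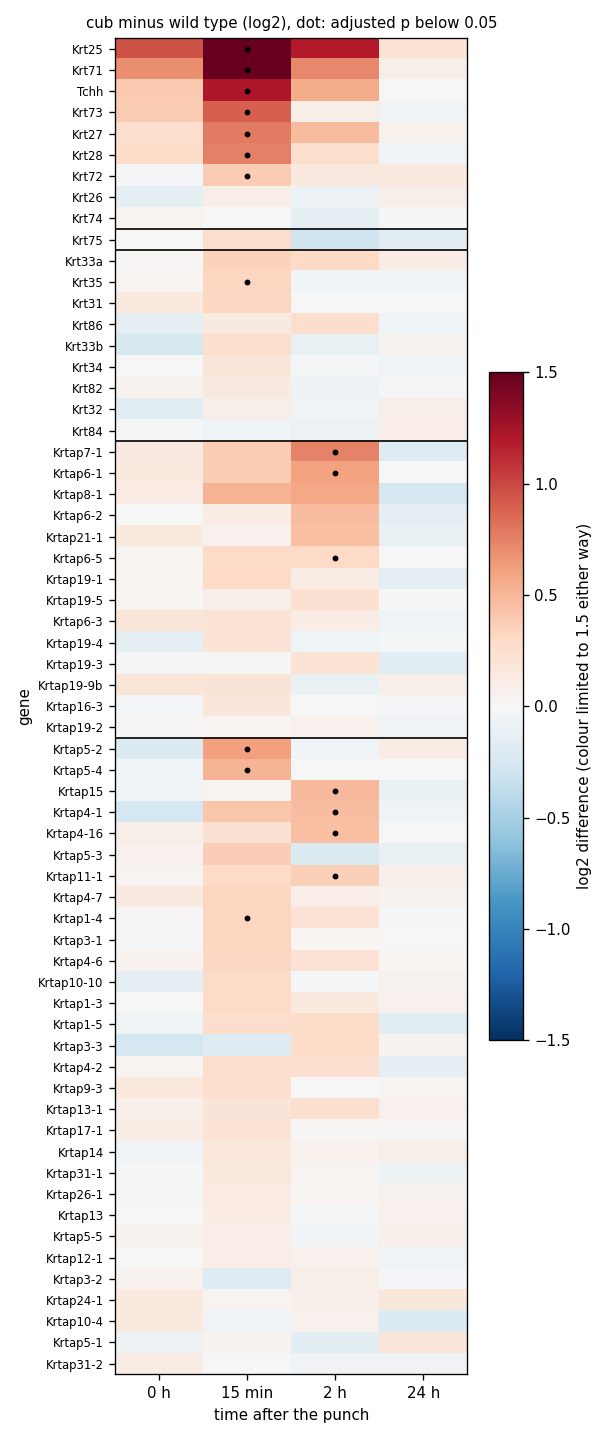
Map of cub minus wild type log2 differences (colour, limited to 1.5 either way) for the 63 genes (rows, in 5 classes parted by lines) at 4 times (columns), with dots at limma adjusted p below 0.05. Dots are in the 15 min and 2 h columns, 11 and 7 of them, and Krt25 at 15 min is the largest difference at 2.25.

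Besides Krtap4-1 and Krtap7-1, described above, 8 KAP genes that had the highest signal of their family reached a group mean of 6. Krtap17-1 had group means of 8.10 to 8.57 in cub and 8.07 to 8.39 in wild type, Krtap3-1 7.41 to 7.85 in cub and 7.43 to 7.55 in wild type, and Krtap5-1 7.27 to 7.44 in cub and 7.09 to 7.45 in wild type. The other 5 were Krtap9-3, Krtap19-4, Krtap1-3, Krtap10-4 and Krtap8-1. None of these 8 was called between the genotypes at a single time.

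Compared with the unwounded ear, 11 genes were higher in cub at 2 h and 0 lower, where 7.66% of all genes were higher and 4.28% lower. The 2 h and 24 h comparisons of a genotype share its 0 h arrays. Krtap3-3, of a cysteine-rich family of the cortex, was 7.35, 7.30 and 7.38 in cub at 2 h, against 6.35, 6.33 and 6.38 in cub at 0 h. The arrays of each time lay close together and the times did not overlap, and the difference was 0.99 ± 0.12 (limma adjusted p = 6.47e-06). Krtap7-1 rose by 0.70 ± 0.19 (adjusted p = 0.0194), Krtap4-1 by 0.61 ± 0.12 (adjusted p = 0.00188) and Krtap15 by 0.53 ± 0.07 (adjusted p = 1.77e-05), all from limma. Krtap6-1 rose by 0.50 ± 0.13 (limma adjusted p = 0.0133) and the shaft keratin Krt33a by 0.45 ± 0.09 (limma adjusted p = 0.00251). Without cub 0 h replicate 2 there were 6 calls, and without cub 2 h replicate 2 there were 7. Markers of other cells moved in the same comparison: 7 of 12 melanocyte genes were higher in cub at 2 h than at 0 h (median of the list 0.52), while 5 of 9 adipocyte genes (median −0.83) and 3 of 10 skeletal muscle genes (median −0.21) were lower. Their part in the changes of the hair genes was not tested.

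In wild-type ears 2 genes were higher at 2 h than at 0 h, where 3.98% of all genes were higher. Krtap3-3 was 7.01, 7.09 and 7.11 at 2 h, against 6.66, 6.58 and 6.61 at 0 h, a difference of 0.45 ± 0.12 (limma adjusted p = 0.0208). Krt31 differed by 0.26 ± 0.08 (limma adjusted p = 0.0447). The Krtap3-3 call ended without wild-type 0 h replicate 2 or 3 and without wild-type 2 h replicate 2 or 3, and the Krt31 call held in 6 of 13 alternatives. The difference in the change of Krtap3-3 between the genotypes was 0.54 ± 0.17 (limma adjusted p = 0.238), which did not pass. It passed with only the arrays compared (0.54, limma adjusted p = 0.0323) and with array weights (0.57, limma adjusted p = 0.0329), but in no fit that left out an array.

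At 24 h Krtap3-2 was lower than at 0 h in both genotypes, and Krtap3-3 in wild type. Krtap3-2 was 6.96, 6.87 and 6.82 in cub at 24 h, against 7.67, 7.44 and 7.54 in cub at 0 h, and the groups did not overlap (−0.67 ± 0.09, limma adjusted p = 1.55e-06). In wild type it was 6.86, 6.87 and 6.99 at 24 h, against 7.60, 7.32 and 7.58 at 0 h (−0.59 ± 0.09, limma adjusted p = 9.08e-06). Krtap3-3 was 6.30, 5.94 and 5.98 in wild type at 24 h, against 6.66, 6.58 and 6.61 at 0 h (−0.54 ± 0.12, limma adjusted p = 0.000735). In cub it was 6.08, 6.53 and 5.78 at 24 h, against 6.35, 6.33 and 6.38 at 0 h, where the groups overlapped (−0.22 ± 0.12, limma adjusted p = 0.145). Without cub 24 h replicate 2 it was lower in cub as well (−0.42, limma adjusted p = 0.000752), as it was with array weights (−0.26, limma adjusted p = 0.0315). Krtap17-1 was lower in both genotypes, by −0.31 ± 0.06 in cub (limma adjusted p = 0.000237) and −0.22 ± 0.06 in wild type (limma adjusted p = 0.00484). Krtap3-1 did not pass in either, at 0.02 ± 0.12 in cub and 0.00 ± 0.12 in wild type.

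**Figure D5:**
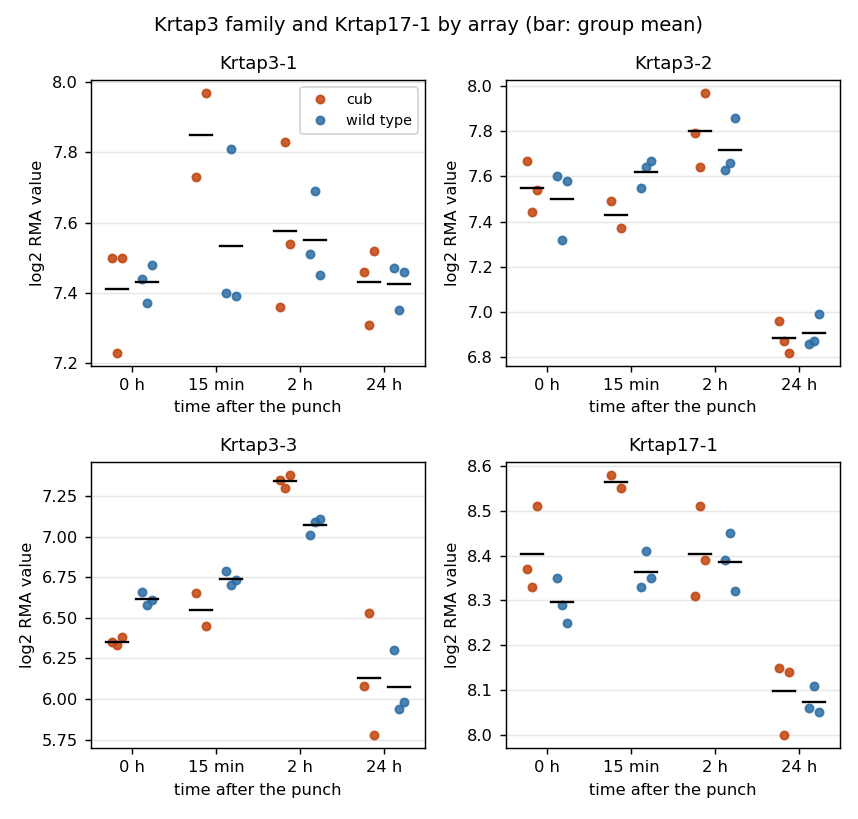
Log2 RMA values (vertical axis, each panel with its own scale) of the 3 Krtap3 genes and Krtap17-1 by time after the punch (horizontal axis), with 1 point per array and a bar at each group mean. Krtap3-3 at 2 h was 7.30 to 7.38 in cub and 7.01 to 7.11 in wild type, and Krtap3-2 at 24 h was 6.82 to 6.96 in cub and 6.86 to 6.99 in wild type, below all 0 h arrays.

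Of the 63 genes, 3 were higher and 4 lower in cub at 24 h than at 0 h, where 46.0% of all genes were called, and 1 was higher and 3 lower in wild type, where 42.8% were called. The share called in the set was 11.1% in cub and 6.3% in wild type. In cub the others were Krt28 (−0.34 ± 0.11, limma adjusted p = 0.0172) and Krt35 (−0.20 ± 0.08, adjusted p = 0.0367), lower, and Krt84 (0.32 ± 0.10, adjusted p = 0.00883), Krtap24-1 (0.22 ± 0.09, adjusted p = 0.0481) and Krtap14 (0.18 ± 0.06, adjusted p = 0.0229), higher. Krt28 was −0.14 without cub 0 h replicate 3 (limma adjusted p = 0.193), the array that stood high in the sheath genes, and Krt35 was −0.13 without cub 24 h replicate 2 (limma adjusted p = 0.234). Krtap24-1 and Krtap14 also lost their calls without single arrays (limma adjusted p up to 0.213 and 0.111). Without cub 0 h replicate 2 there were 12 calls. In wild type Tchh was 7.29, 7.13 and 7.33 at 24 h, against 6.62, 6.68 and 6.63 at 0 h. It rose by 0.61 ± 0.17 (limma adjusted p = 0.00604), the only wild-type gene of the set to do so. Other lists were lower at 24 h than at 0 h in many genes. In cub 13 of 19 hair follicle regulators, 8 of 12 bulge and outer root sheath genes, 10 of 10 skeletal muscle, 9 of 9 adipocyte and 7 of 10 cartilage genes were lower. In wild type the counts were 12 of 19, 7 of 12, 9 of 10, 8 of 9 and 8 of 10. The bulge and outer root sheath list was split, as 4 of its 12 genes were higher in both genotypes. These were Krt6a, Krt6b, Krt16 and Krt17, with rises of up to 6.30 in cub and 6.10 in wild type. Of the hair follicle regulators 1, Vdr, was higher in both genotypes. The part of these lists in the values of the hair genes was not tested.

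At 15 min, 0 genes passed against 0 h in either genotype in limma, where 0.0251% of all genes passed in cub and 0.0351% in wild type. In cub 28 of the 63 had an unadjusted p below 0.05, as did 14.6% of all genes, and in wild type 1, against 9.16% of all genes. The cub 0 h arrays were spread as described above, and without cub 0 h replicate 3 there were 6 calls: Krt25 by 1.91 (limma adjusted p = 0.00354), Krt71 by 1.27, Tchh by 1.15, Krt73 by 0.90, Krt28 by 0.63 and Krtap5-4 by 0.52. Without cub 15 min replicate 2 there were 3, Krtap5-4, Krt34 and Krtap4-7. The difference of this change between the genotypes passed in 0 of 63 genes in limma, where 0.0% of all genes passed, and 20 had an unadjusted p below 0.05, as did 8.73% of all genes. Without cub 0 h replicate 3, 1 passed, Tchh (1.15, limma adjusted p = 0.00602).

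At 2 h, 1 gene differed between the genotypes in its change from 0 h, where 0.13% of all genes did, and 13 of 63 had an unadjusted p below 0.05, as did 10.2% of all genes. That gene was Krtap15, at 0.52 ± 0.10 (limma adjusted p = 0.0383), which was 4.21, 4.27 and 4.16 in cub at 0 h and 4.26, 4.20 and 4.29 in wild type at 0 h. The call did not hold when any 1 of the 12 arrays was left out (limma adjusted p up to 0.130). For the change to 24 h, 0 passed in limma, where 1.0% of all genes did, and 3 had an unadjusted p below 0.05, as did 11% of all genes.

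Other hair genes, in lists written beside this set, differed in part. Of 16 other proteins of the hair shaft and root sheaths, 5 were higher in cub at 15 min and 0 lower: Lrrc15 by 0.72 ± 0.16, the lipase Liph by 0.71 ± 0.14, the desmosomal cadherins Dsc2 by 0.63 ± 0.13 and Dsg4 by 0.37 ± 0.09, and Tchhl1, a relative of Tchh, by 0.32 ± 0.07. At 0 h 4 were higher (Cdsn, Liph, Lrrc15 and Prr9), at 2 h 2 (Liph and Lrrc15) and at 24 h 1 (Liph). Averaged over the times 8 were higher and 0 lower. Of all genes, 1.57% were higher and 1.88% lower at 15 min, and 3.84% and 0.577% at 2 h. In either direction 5.25% were called at 0 h and 5.68% at 24 h. In the average 9.71% were higher and 8.56% lower. The sheath regulator Gata3, a transcription factor needed for the inner root sheath, did not pass at 15 min (0.03 ± 0.08, limma adjusted p = 0.843) and was lower in cub at 24 h (−0.63 ± 0.07, limma adjusted p = 1.92e-05). Lef1, a factor of the hair matrix, was higher in cub at 15 min (0.31 ± 0.09, limma adjusted p = 0.0456). Foxq1, a factor of the hair medulla, was lower at 0 h, 15 min and 24 h, by −0.68 ± 0.11 at 0 h. Of the 19 regulators, 1 was higher (Hr) and 1 lower (Foxq1) at 0 h, and 1 was higher and 1 lower at 15 min. At 2 h 0 were called, and at 24 h 0 were higher and 3 lower. Averaged over the times 0 were higher and 4 lower (Foxn1, Foxq1, Gata3 and Msx2). Of 13 cell division genes, 0 differed at 0 h, 15 min or 2 h, and 1 was lower in cub at 24 h.

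The genes most like the mean of the 9 inner root sheath genes over the 23 arrays were Gpr31b (r = 0.883), Chrdl2 (r = 0.855), a secreted binder of BMPs, Dsg4 (r = 0.820), Lyg2, Foxj1, Vmn1r71, Scd3 (r = 0.783), Pcyox1l, Yjefn3 and Awat2 (r = 0.774). Scd3, a desaturase, and Awat2, a wax synthase, belong to the sebaceous gland, and both were higher in cub at 0 h, 15 min and 2 h. They do not stand for the sebaceous list, of which 2 of 9 genes were higher in cub and 6 lower averaged over the times. Of all genes, 9.71% were higher and 8.56% lower in that average. The genes most like the mean of the 9 shaft keratins were Tbx4 (r = 0.870), Siglec15, Dppa4, Rph3al, Stk32a, Pak7, Myt1l, Lrrc73, Myo15b and Prr7, none of them on a list of hair genes, and the range of that mean was narrow.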

How the data were processed

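Total RNA of ear pinna was hybridised to Affymetrix Mouse Gene 1.0 ST arrays. Per the submitters' processing notes, the deposited log2 values came from the RMA method of Affymetrix Expression Console 1.1. The level of summarization, the annotation and the genome build are not given in the sources used here. Of 35556 rows, 21789 named 1 gene and were used, 1621 named several and 12146 were not named. For genes with several rows the highest mean was kept, which left 19938 genes. RMA shrinks low values towards a floor, so differences of dim genes can be understated.

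A linear model with a mean for each of the 8 groups was fitted to the 23 arrays in R 4.3.3 with limma 3.58.1, giving 15 residual and 5.61 prior degrees of freedom. The 14 comparisons were the genotypes (cub minus wild type) at single times and on average, wounded against 0 h ears in each genotype, and the difference of those changes. P values were two-sided and adjusted by Benjamini-Hochberg at 0.05. The number of arrays limits the precision. The submitters' own test, R/maanova, was not run. The code was tested on simulated data.

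Genes named with values were all keratins and Tchh, the brightest member of each Krtap family, and in each comparison the 6 largest called differences in each direction; others were named after their values were seen. The split of genes by their mean over all arrays and the KAP classes, by family number, were set after the data were seen, the classes because the planned use of protein composition could not be applied. The members, the 11 marker lists (130 of 134 genes tested), the tests and the rules were chosen with earlier results of these data known. The lists covered hair follicle regulators, other hair shaft and root sheath proteins, bulge and outer root sheath, dermal papilla, melanocytes, cell division, interfollicular epidermis, sebaceous gland, skeletal muscle, cartilage and adipocytes. Same-numbered arrays of different groups did not deviate together, so replicate numbers do not pair the samples. Alternatives were median-centring, quantile normalization, a filter at 6, every row, only the arrays compared, the replicate block, trend and robust moderation, array weights and each array left out.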

Additional observations from a re-analysis of the deposited data

Results flagged for a closer look

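Krtap15 was flagged because its change between 0 h and 2 h differed between the genotypes. The change was 0.53 ± 0.07 in cub and 0.01 ± 0.07 in wild type, a difference of 0.52 ± 0.10 (limma adjusted p = 0.0383). At 2 h all 3 cub arrays were above all 3 wild-type arrays, and at 0 h the genotypes overlapped. Krtap15 is dim, with a highest group mean of 4.74. The call passed in 5 of 19 alternatives, and in none of those that left out an array.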

How the results depend on the processing

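Of 228 recomputed counts of called genes, 171 stayed within 1.5 times the reported count and 57 moved. Of 58 called pairs of gene and comparison, 28 passed in all alternatives and 0 changed sign. The passes counted include those of the dim filter by genes that enter it only through cub groups. At 0 h the count was 1 with only the arrays compared and 1 with array weights. At 15 min it was 7 with quantile normalization, 6 with only the arrays compared and 6 with array weights. At 2 h it was 4 with median-centring, 3 with the dim filter, 13 with only the arrays compared (12 higher, 1 lower) and 21 with array weights. The average over the times gave 24 with array weights. For 2 h against 0 h in cub it was 4 with the dim filter and 17 with array weights, and for 24 h against 0 h in cub 3 with the dim filter and 4 with only the arrays compared. For 2 h against 0 h in wild type it was 1 with the dim filter, the replicate block or array weights, and for 24 h against 0 h in wild type 7 with only the arrays compared or with array weights. For the difference between genotypes in the change to 2 h it was 0 with median-centring, the dim filter or the replicate block, 2 with only the arrays compared and 3 with array weights. The dim filter removes 36 of the 63 genes, and the causes of the other shifts were not tested. Its 3 calls at 2 h were Krt25, Krtap4-1 and Krtap7-1. These genes, and also Krt33a, Krt35, Krt72 and Krtap5-4, enter the filter only through cub groups, so their passes under it add no support. The replicate block moved no other count by over 1.5 times. It gave 8 at 15 min.

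Leaving out 1 array gave 0 to 5 calls at 0 h, 2 to 15 at 15 min, 3 to 7 at 2 h, 0 at 24 h and 13 to 21 on average. Against 0 h it gave 0 to 6 at 15 min, 6 to 14 at 2 h and 5 to 12 at 24 h in cub, and 0, 0 to 2 and 4 to 6 in wild type. For the differences of change it gave 0 to 1, 0 and 0 at 15 min, 2 h and 24 h. The limma fits behind these counts rest on 2 or 3 arrays per group, and differences of dim genes lie near the floor of the arrays.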

Other observations

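Rows that named several genes were left out of the tests above, and 15 of them held the name of a hair keratin or KAP. The row shared by Gm11559, Gm11567, Gm11568 and Krtap9-1 was higher in cub than in wild type at 15 min by 0.57 ± 0.13 (limma adjusted p = 0.0197) and at 2 h by 0.57 ± 0.12 (limma adjusted p = 0.00575). In cub it was also higher at 2 h than at 0 h, by 0.46 ± 0.12 (limma adjusted p = 0.0123). Both rows shared by Gm11554, Gm11569 and Krtap4-13 were higher in cub at 2 h than at 0 h by 0.39 (limma adjusted p = 0.0287 and 0.0448). A row shared by Krtap10-4, Krtap10-10 and several predicted genes was lower at 24 h than at 0 h, by −0.26 ± 0.10 in cub (limma adjusted p = 0.0324) and −0.33 ± 0.10 in wild type (limma adjusted p = 0.00891). Over the 15 rows the median cub minus wild type difference was 0.00 at 0 h, 0.35 at 15 min, 0.20 at 2 h and −0.03 at 24 h.

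Lists of other skin cells also held calls between the genotypes. Of all genes, 5.25% were called at 0 h and 5.68% at 24 h in either direction. At 15 min 1.57% were higher in cub and 1.88% lower, and at 2 h 3.84% and 0.577%. Of 12 bulge and outer root sheath genes, Krt17 was higher in cub at 0 h, 15 min and 24 h, Cd34 at 2 h, and Krt15 and Krt79 were lower at 24 h and Sox9 at 0 h. Of 9 interfollicular epidermis genes, Ivl, Krt1 and Krt77 were higher in cub at all 4 times, and Krt2 was lower at 0 h and 24 h. Of 9 sebaceous gland genes, Scd3 and Awat2 were higher in cub at 0 h, 15 min and 2 h, Scd3 by up to 2.87 and Awat2 by up to 1.56, both at 15 min. Elovl3 and Mgst1 were lower in cub at 0 h, and Cidea, Fasn, Mc5r and Mgst1 at 24 h. Of 11 dermal papilla genes, Fgf10 and Vcan were higher at 0 h and Vcan at 2 h. Of 10 skeletal muscle genes 2 were higher in cub at 0 h, of 10 cartilage genes 1, and of 9 adipocyte genes 1, while at 15 min these 3 lists had 0 calls. Averaged over the times, 2 of the 9 sebaceous genes were higher and 6 lower, 4 of the 9 interfollicular genes were higher and 1 lower, and 4 of the 10 muscle genes were higher and 0 lower, where 9.71% of all genes were higher and 8.56% lower.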
